A study of Mus musculus with 6 samples.

Results

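The 3p arms of the let-7 hairpins were examined locus by locus in mouse nephron progenitors at 2 stages of kidney development. The set comprised the 10 let-7 3p arms listed as mmu-let-7a-1-3p, mmu-let-7b-3p, mmu-let-7c-1-3p, mmu-let-7c-2-3p, mmu-let-7d-3p, mmu-let-7e-3p, mmu-let-7f-1-3p, mmu-let-7f-2-3p, mmu-let-7g-3p and mmu-let-7i-3p (the mouse prefix mmu is dropped from here on), taken by name from a table of 1034 distinct mature miRNAs on 1104 rows. All 10 were found, and all 10 passed the filter on low values, a mean of 1 TPM or more (TPM is a read count scaled to arm length and then to the same total in each library). Small RNA libraries came from CD1 mice, with 3 libraries at the embryonic stage E14.5 and 3 at the day of birth (P0). Each library held progenitors pooled from the kidneys of 1 litter, released by a brief enzymatic digestion of the cortex and captured on magnetic beads carrying antibody to Itga8, an integrin subunit on the cell surface. The labels give no genetic alteration or drug for either stage, and both stages went through the same isolation.

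A let-7 hairpin is cut by Dicer into a duplex of a 5p and a 3p arm. The 5p arm is the usual guide strand loaded into Argonaute, and it represses growth and pluripotency genes such as Hmga2 and Lin28. The 3p arm is called the passenger strand because most of it is discarded. The let-7a, let-7c and let-7f 5p arms each come from 2 mouse genes, so their levels cannot be traced to 1 gene, whereas most 3p arms differ in sequence. Lin28 proteins block the maturation of let-7 precursors, and the Lin28 to let-7 axis has been tied to the time at which nephron formation ends in the kidney.

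The mature sequences are shown because they decide what each value can be traced to. They are given 5′ to 3′ from RefSeq (GRCm38.p6), which lists all 10 at the same positions as the deposited table, with the seed (bases 2 to 8) in capitals.
let-7a-1-3p: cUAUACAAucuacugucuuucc
let-7c-2-3p: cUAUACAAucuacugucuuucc
let-7f-1-3p: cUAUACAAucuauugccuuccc
let-7b-3p: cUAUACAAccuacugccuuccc
let-7f-2-3p: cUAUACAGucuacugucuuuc
let-7d-3p: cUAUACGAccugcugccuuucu
let-7e-3p: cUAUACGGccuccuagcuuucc
let-7c-1-3p: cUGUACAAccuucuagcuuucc
let-7i-3p: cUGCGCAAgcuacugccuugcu
let-7g-3p: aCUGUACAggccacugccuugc

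The 10 arms had 9 distinct sequences and 7 distinct seeds, whereas the 5p arms of the 10 hairpins all had the seed GAGGUAG. Arms let-7a-1-3p, let-7c-2-3p, let-7f-1-3p and let-7b-3p shared the seed UAUACAA. In let-7f-2-3p the substitution A8G relative to let-7a-1-3p, counted from the 5′ end, gave another seed and was the only difference over their shared length, 21 bases in let-7f-2-3p. Arm let-7g-3p was the arm that did not begin with C. Its annotated start is shifted by 1 base against the others: without its first base it differed from let-7i-3p at 4 of 21 bases and from the other arms at 5 to 8, so its seed here follows from that start.

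Arms let-7a-1-3p and let-7c-2-3p were identical over all 22 bases although their genes lie on chromosomes 13 and 15. Their hairpins are shown with the 3p arm in capitals, to mark how little sequence around the arm could tell them apart.
Mirlet7a-1: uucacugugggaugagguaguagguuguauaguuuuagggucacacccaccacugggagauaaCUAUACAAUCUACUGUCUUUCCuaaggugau
Mirlet7c-2: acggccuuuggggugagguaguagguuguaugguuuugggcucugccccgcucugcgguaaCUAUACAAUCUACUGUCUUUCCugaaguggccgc
Their hairpins also matched at the 3 bases before the arm and at the 1 base after it. The row of let-7a-1-3p held 60.0%, 59.9% and 60.3% of the reads of both rows at E14.5 and 59.1%, 59.4% and 90.1% at P0, with libraries given here and below in the order of their replicate numbers. The 95% Wilson interval was 85.1 to 93.6% in P0 replicate 3, where both rows held 192 reads, and 55.1 to 63.5% in P0 replicate 2, with 517 reads. The split differed from that of the other libraries beyond counting error in P0 replicate 3 only. How the authors assigned reads of identical arms is not given in the sources used here, so these 2 rows cannot be told apart by gene, and their sum is also given. Summed, they held 312, 193 and 274 TPM at E14.5 and 293, 23.3 and 8.94 TPM at P0.

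The libraries held between 2649506 reads (E14.5 replicate 1) and 34934526 reads (P0 replicate 1) on annotated miRNAs, recovered from the TPM values. A count of 3 reads on a 22-base arm corresponded to 1.14 TPM in the shallowest library and to 0.0863 TPM in the deepest. P0 replicate 1 stood apart from its group: across miRNAs it correlated more with E14.5 (mean r 0.948) than with P0 (mean r 0.908), against 0.878 and 0.872 with E14.5 for P0 replicates 2 and 3. The counts of calls for the 3p arms, the 5p arms, the arm ratio and the neighbours are therefore given with and without that library, and the levels of the 10 arms are printed for every library. The table holds miRNAs only, so the progenitor identity of the cells could not be checked against mRNA markers. Among miRNA markers of other cell types, 2 of 2 endothelial, 5 of 5 epithelial and 6 of 9 stromal miRNAs were called lower at P0 in TPM by limma, with 1 of 5 erythroid and 0 of 4 leukocyte miRNAs, where 32.8% of all miRNAs were called lower. With the libraries rescaled by median of ratios, so that the typical miRNA is equal between them, that share was 5.22%, and 1 endothelial, 3 epithelial, 0 stromal and 0 erythroid miRNAs were called lower and leukocyte miR-223-3p higher. Under that scaling without P0 replicate 1, 1 endothelial, 3 epithelial, 5 stromal and 2 erythroid miRNAs were called lower, and 2 erythroid and 1 leukocyte higher, where 26.0% of all miRNAs were called lower and 22.4% higher. In TPM, leaving out any library but P0 replicate 1 gave 2 to 5 stromal and 3 to 5 epithelial miRNAs called lower. The endothelial, erythroid and leukocyte counts stayed at 2, 1 and 0. Shares of all miRNAs in those fits are not given here. Without P0 replicate 1, in TPM, the counts lower were 2, 5, 9, 2 and 2 in the order of the lists, and 2 erythroid miRNAs were higher, where 53.4% of all miRNAs were called lower and 7.76% higher. Their summed levels were 26608 to 44921 TPM at E14.5 and 5634 to 8158 TPM at P0 for the endothelial list, 4122 to 23183 and 500.2 to 1542 TPM for the epithelial list, and 85580 to 102772 and 33691 to 46708 TPM for the stromal list. The erythroid list held 242 to 417 and 128 to 194 TPM, and the leukocyte list 632 to 1202 and 454 to 629 TPM. Only miR-486a-3p of the erythroid list was at 0, in 2 libraries. P0 replicate 1 was the highest P0 library for the endothelial, epithelial, stromal and leukocyte sums, yet below each E14.5 library for all 5 lists. The part of these cell types in the levels below was not tested, and in such pools fewer cells of a type and less RNA per cell cannot be told apart.

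The let-7a-1, let-7f-1 and let-7d genes lie together on the minus strand of chromosome 13, inside the exon of the long noncoding RNA gene 6720427I07Rik in GENCODE M21 on mm10. The arm let-7a-1-3p, at chr13:48538188-48538209, measured 187, 116 and 165 TPM at E14.5 and 173, 13.8 and 8.05 TPM at P0. Its P0 values ranged from the E14.5 level in replicate 1 to a small fraction of it in replicates 2 and 3, so the stages overlapped. The arm let-7f-1-3p, at chr13:48537833-48537854, measured 123, 34.4 and 95.5 TPM at E14.5 and 25.1, 5.31 and 5.49 TPM at P0. Every P0 library lay below every E14.5 library. A second annotated miRNA gene, Gm24111, lies on the opposite strand there, and the use of strand in counting is not given. The arm let-7d-3p, at chr13:48536024-48536045, measured 168, 154 and 232 TPM at E14.5 and 176, 266 and 195 TPM at P0. Its stages overlapped and no P0 library was below the E14.5 range, although it starts only 2164 bases from let-7a-1-3p and 1809 bases from let-7f-1-3p.

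Both let-7 genes on the plus strand of chromosome 15 lie in exons of the long noncoding RNA gene Lncppara, with starts 715 bases apart. The arm let-7c-2-3p, at chr15:85706664-85706685, measured 125, 77.4 and 109 TPM at E14.5 and 120, 9.45 and 0.884 TPM at P0, the last value from 19 reads. P0 replicate 1 was again within the E14.5 range and the other P0 libraries were below it. The arm let-7b-3p, at chr15:85707379-85707400, measured 17.8, 7.04 and 12.7 TPM at E14.5 and 18.5, 10.1 and 6.47 TPM at P0, and its stages overlapped.

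Among arms in introns of host genes was let-7c-1-3p, at chr16:77599717-77599738 on the plus strand in Mir99ahg, the host RNA gene it shares with miR-99a and miR-125b-2. It measured 20.1, 33.3 and 24.7 TPM at E14.5 and 19.4, 5.09 and 7.08 TPM at P0. The lowest E14.5 value rests on 53 reads, with an exact 95% Poisson interval of 15.0 to 26.2 TPM, so it was not separated from P0 replicate 1 beyond counting error, while the other P0 libraries were lower. The arm let-7f-2-3p, at chrX:151912403-151912423 on the plus strand in Huwe1, a ubiquitin ligase gene, measured 33.8, 8.73 and 19.7 TPM at E14.5 and 23.4, 1.04 and 0 TPM at P0. Its 0 in P0 replicate 3 allowed a level of up to about 0.140 TPM, the level of 3 reads on a 22-base arm. For this arm of 21 bases the limit is slightly higher. The arm let-7g-3p, at chr9:106178902-106178923 on the plus strand in Wdr82, a gene for a subunit of histone methyltransferase complexes, measured 6.06, 8.40 and 12.3 TPM at E14.5 and 8.43, 2.79 and 2.00 TPM at P0. Both let-7f-2-3p and let-7g-3p overlapped between stages through P0 replicate 1.

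The arm let-7e-3p, at chr17:17830411-17830432 on the plus strand in an intron of Spaca6, a sperm membrane protein gene, lies in a cluster with miR-99b and miR-125a. It measured 44.7, 47.9 and 59.7 TPM at E14.5 and 34.1, 11.6 and 11.9 TPM at P0, and all P0 libraries were below all E14.5 libraries. The annotated miRNA gene Gm25927 lies on its opposite strand. The arm let-7i-3p, at chr10:122985642-122985663 on the minus strand in an exon of the transcribed pseudogene D630033A02Rik, measured 76.9, 64.7 and 97.3 TPM at E14.5. At P0 it measured 96.2, 18.2 and 14.1 TPM, so its first P0 library was at the E14.5 level and the others were below it.

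**Figure D1:**
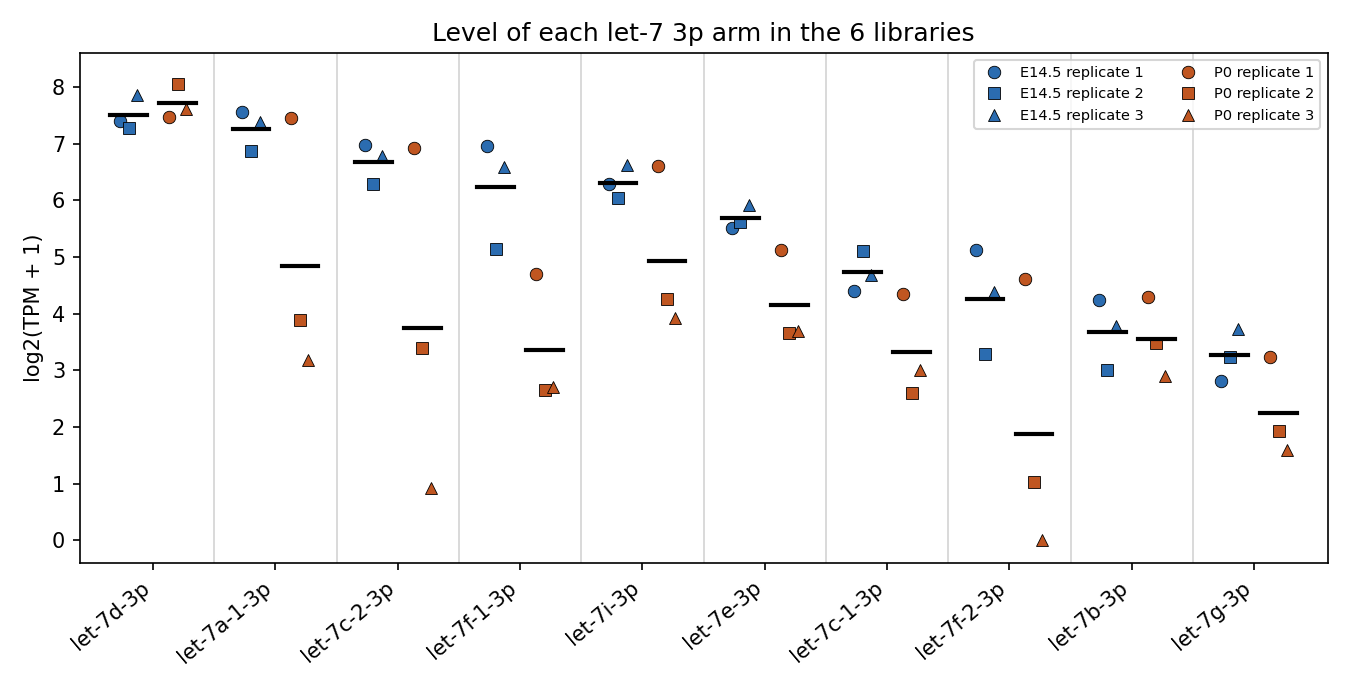
Level of each let-7 3p arm as log2(TPM + 1) in each library, E14.5 in blue and P0 in orange, with the replicate shown by the marker and the mean of 3 libraries by a bar. P0 replicate 1 (orange circle) lies near the E14.5 libraries for most arms, while let-7d-3p stays between 154 and 266 TPM in all 6 libraries.

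By mean TPM at E14.5 the order was let-7d-3p at 185 ± 41.7 (SD, n = 3), let-7a-1-3p at 156 ± 36.6, let-7c-2-3p at 104 ± 24.0, let-7f-1-3p at 84.3 ± 45.4, let-7i-3p at 79.6 ± 16.5, let-7e-3p at 50.7 ± 7.93, let-7c-1-3p at 26.0 ± 6.72, let-7f-2-3p at 20.8 ± 12.6, let-7b-3p at 12.5 ± 5.38 and let-7g-3p at 8.93 ± 3.17 TPM. Neighbours in this order overlapped in range except let-7i-3p over let-7e-3p and let-7e-3p over let-7c-1-3p. At P0 let-7d-3p led at 212 ± 47.5 TPM, followed by let-7a-1-3p at 65.0 ± 93.7 TPM, and this was the only pair of neighbours whose ranges did not overlap. The remaining P0 means ran from 43.3 ± 66.3 TPM for let-7c-2-3p to 4.41 ± 3.50 TPM for let-7g-3p. P0 replicate 1 was the highest P0 library for each arm except let-7d-3p, for which it was the lowest.

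Over all 670 miRNAs tested with limma on log2(TPM + 1), 32.8% were called lower at P0 at a Benjamini-Hochberg adjusted p below 0.05 and 1.34% higher, and the median log2 change was -1.20. Against this background 1 of the 10 arms was called lower and 0 higher, with a median change of -1.46. The called arm was let-7f-1-3p, with a log2 change of -2.88 (SE 0.73, limma adjusted p = 0.0116), or -1.68 relative to the median of all miRNAs. This call was lost without E14.5 replicate 1 and without E14.5 replicate 3. Changes of -2.94 (SE 1.12, limma adjusted p = 0.0572) for let-7c-2-3p, -2.43 (SE 0.92, limma adjusted p = 0.0563) for let-7a-1-3p and -2.38 (SE 1.00, limma adjusted p = 0.0764) for let-7f-2-3p did not pass. The summed rows of the identical let-7a-1-3p and let-7c-2-3p gave -2.63 (SE 0.98, limma adjusted p = 0.0533), which did not pass either. The remaining arms ranged from -1.53 for let-7e-3p to 0.20 for let-7d-3p. In 3 of the 10 (let-7c-1-3p, let-7e-3p and let-7f-1-3p) the P0 libraries were all below the E14.5 libraries, for let-7c-1-3p by less than counting error, a state held by 46.4% of all miRNAs tested.

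The scaling of the libraries moved all of these values. With median-of-ratios scaling, which sets the typical miRNA equal between libraries, the median over all miRNAs was -0.17, and 5.22% were called lower and 5.67% higher at P0. None of the 10 arms was called under it by limma, with 2 of the 10 (let-7d-3p and let-7f-1-3p) at an unadjusted p below 0.05, a level reached by 34.0% of all miRNAs. Relative to the median of all miRNAs, the change of let-7d-3p was 1.40 in TPM and 1.66 under median-of-ratios scaling, and that of let-7b-3p was 1.08 and 1.23. Those of let-7c-2-3p were -1.75 and -1.64, and those of let-7f-1-3p -1.68 and -1.50. Without P0 replicate 1 the values were -3.11 and -2.96 for let-7c-2-3p and -2.13 and -1.87 for let-7f-1-3p. They were then 1.74 and 2.12 for let-7d-3p and 0.94 and 1.18 for let-7b-3p. The arms let-7c-1-3p, let-7e-3p, let-7g-3p and let-7i-3p lay between -0.33 and 0.22 of the median under both scalings. This depended on P0 replicate 1. Without it let-7i-3p was at -0.80 relative to the median in TPM and at -0.47 under median-of-ratios scaling, and let-7e-3p and let-7c-1-3p were at -0.59 and -0.50 in TPM but at -0.28 and -0.25 under that scaling. The sign of let-7b-3p and let-7g-3p was negative in TPM and positive under median-of-ratios scaling. The only arm whose libraries did not overlap under that scaling was let-7d-3p, higher at P0, as were 15.7% of all miRNAs.

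Without P0 replicate 1, 8 of the 10 arms were called lower in TPM, all but let-7b-3p and let-7d-3p, and 0 higher, where 53.4% of all miRNAs were called lower and 7.76% higher. The count of calls thus depended on that library. Log2 changes in this fit reached -4.53 (SE 0.65, limma adjusted p = 0.000151) for let-7c-2-3p, -3.74 (SE 0.64, limma adjusted p = 0.000461) for let-7f-2-3p and -3.73 (SE 0.42, limma adjusted p = 3.33e-05) for let-7a-1-3p. With median-of-ratios scaling and without that library, 26.0% of all miRNAs were called lower and 22.4% higher. There 4 arms (let-7a-1-3p, let-7c-2-3p, let-7f-1-3p and let-7f-2-3p) were called lower, and let-7d-3p was called higher at 1.85 (SE 0.32, limma adjusted p = 0.00204). Counted in TPM, P0 replicate 1 was not below the lowest E14.5 library for 7 of the 10 arms and for 39.3% of all miRNAs tested, while P0 replicates 2 and 3 were both below it for 8 of the 10 arms and for 63.6% of all.

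**Figure D2:**
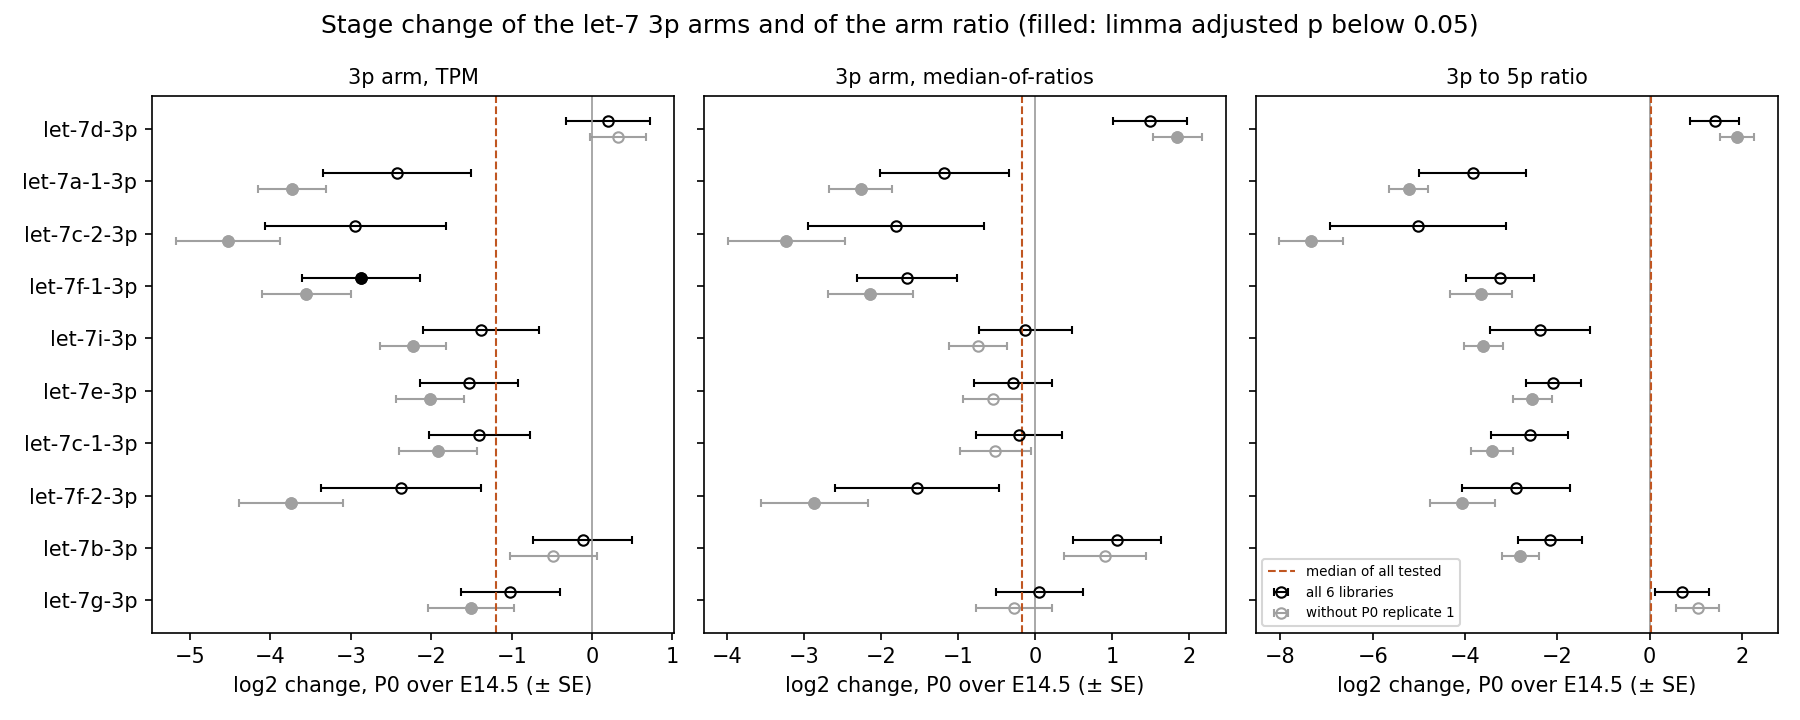
Log2 change from E14.5 to P0 with its SE for each arm in TPM (left), with median-of-ratios scaling (middle) and for the 3p to 5p ratio of its hairpin (right), with all 6 libraries (black) and without P0 replicate 1 (grey), filled where the limma adjusted p was below 0.05. The dashed line is the median over all miRNAs or hairpins tested, -1.20, -0.17 and 0.03 from left to right, and let-7d-3p lies above it in each panel.

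The ratio of the 3p to the 5p arm of the same hairpin does not depend on the scaling of a library apart from the pseudocount of 1 TPM. It asks whether the passenger strand changed with its guide strand. For let-7a-1, let-7c-1, let-7c-2, let-7f-1 and let-7f-2 the 5p arm is shared by 2 genes, so reads on its own row cannot be traced to 1 hairpin. Of 8 distinct 5p arms, 2 were called higher at P0 in TPM by limma, as were 1.34% of all miRNAs: let-7b-5p, from 3799, 2853 and 4164 to 9976, 20877 and 15051 TPM, and let-7c-5p, which is made by 2 of the genes and was tested on the row with more reads. For let-7b-5p the log2 change was 2.04 (SE 0.46, limma adjusted p = 0.00698) and for let-7c-5p 1.20 (SE 0.43, limma adjusted p = 0.0452). The call of let-7b-5p held with any library left out, while that of let-7c-5p held only with P0 replicate 1 left out and was lost without any of the other 5. Under median-of-ratios scaling 6 of the 8 were called higher, all but let-7d-5p and let-7g-5p, as were 5.67% of all miRNAs. Arm let-7d-5p went the other way in TPM, from 5360, 5340 and 5011 to 3688, 1998 and 1571 TPM with no overlap, at a log2 change of -1.21 (SE 0.48, limma adjusted p = 0.0649) that did not pass. Arm let-7g-5p measured 9415, 6353 and 8587 TPM at E14.5 and 7780, 1522 and 1231 TPM at P0, with a change of -1.71 (SE 0.64, limma adjusted p = 0.0556) that did not pass. Without P0 replicate 1 both were called lower in TPM, let-7g-5p at -2.55 (SE 0.28, limma adjusted p = 2.72e-05) and let-7d-5p at -1.56 (SE 0.26, limma adjusted p = 0.000359), and let-7b-5p, let-7c-5p and let-7i-5p were called higher, where 53.4% of all miRNAs were called lower and 7.76% higher. With median-of-ratios scaling as well, 6 were called higher and let-7g-5p lower, where 22.4% of all miRNAs were called higher and 26.0% lower. With all libraries let-7i-5p did not pass in TPM, at a log2 difference of 0.99. The remaining 5p arms, of let-7a, let-7e and let-7f, did not pass either, at 0.27 to 0.56.

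In every library each 3p arm was rarer than its 5p arm. The share of 3p reads among the reads of a hairpin depends, where a 5p arm has 2 rows, on whether its own row or both are counted. On its own row it was highest at E14.5 and in P0 replicate 1 for let-7a-1, let-7c-2 and let-7d, while in P0 replicates 2 and 3 let-7d alone stayed above 1%. Over both rows only let-7d exceeded 1% in any library. For let-7d the 3p share was 3.04%, 2.80% and 4.43% at E14.5 and 4.55%, 11.7% and 11.0% at P0, with each P0 library above each E14.5 library. The 95% Wilson intervals were 4.19 to 4.68% for the highest E14.5 library and 4.44 to 4.66% for the lowest P0 library, so these 2 were not separated beyond counting error. For let-7a-1 the share on its own row was 8.01%, 4.32% and 6.47% at E14.5 and 3.03%, 0.190% and 0.132% at P0. For let-7c-2 it was 3.94%, 3.69% and 2.74% at E14.5 and 2.62%, 0.0426% and 0.00485% at P0. In both, each P0 library was below each E14.5 library, and P0 replicate 1 lay closest to them. For let-7c-2 the closest libraries had Wilson intervals of 2.53 to 2.98% at E14.5 and 2.55 to 2.70% at P0, so they too were not separated beyond counting error. Over both rows of the 5p arm the share of let-7a-1 was 0.863%, 0.372% and 0.655% at E14.5 and 0.454%, 0.0383% and 0.0271% at P0, so its stages then overlapped. That of let-7c-2 was 0.690%, 0.430% and 0.458% at E14.5 and 0.401%, 0.0124% and 0.00148% at P0, again without overlap but with overlapping Wilson intervals in the closest libraries (0.411 to 0.450% and 0.389 to 0.414%).

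The other hairpins held 3p shares below 1% on their own rows. For let-7i the share was 0.235%, 0.160% and 0.272% at E14.5 and 0.230%, 0.0202% and 0.0144% at P0. In P0 replicate 3 this was 303 reads of 2105451 on the hairpin, while P0 replicate 1 lay within the E14.5 range. For let-7f-1 the share was 0.480%, 0.121% and 0.412% at E14.5 and 0.0523%, 0.0189% and 0.0205% at P0. For let-7e it was 0.829%, 0.438% and 0.715% at E14.5 and 0.283%, 0.0957% and 0.111% at P0, and neither of these hairpins overlapped between stages. For let-7b the mean share was 0.339 ± 0.114% (SD, n = 3) at E14.5, and the P0 libraries held 0.185%, 0.0485% and 0.0430%, with a mean of 0.0923% and of 0.0457% without replicate 1. For let-7c-1 the mean was 0.156 ± 0.0460% at E14.5, and the P0 libraries held 0.0767%, 0.00938% and 0.0171%, with a mean of 0.0344% and of 0.0132% without replicate 1. Neither overlapped between stages. For let-7f-2 the P0 replicate 3 library held 0 of 684519 reads on the 3p arm, which allows a share of up to 0.000438%, against 0.122%, 0.0284% and 0.0789% at E14.5. P0 replicates 1 and 2 held 0.0446% and 0.00294%, the first of them within the E14.5 range. For let-7g the share was 0.0643%, 0.132% and 0.143% at E14.5 and 0.108%, 0.183% and 0.162% at P0, with overlap. These intervals and limits cover counting error only.

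**Figure D3:**
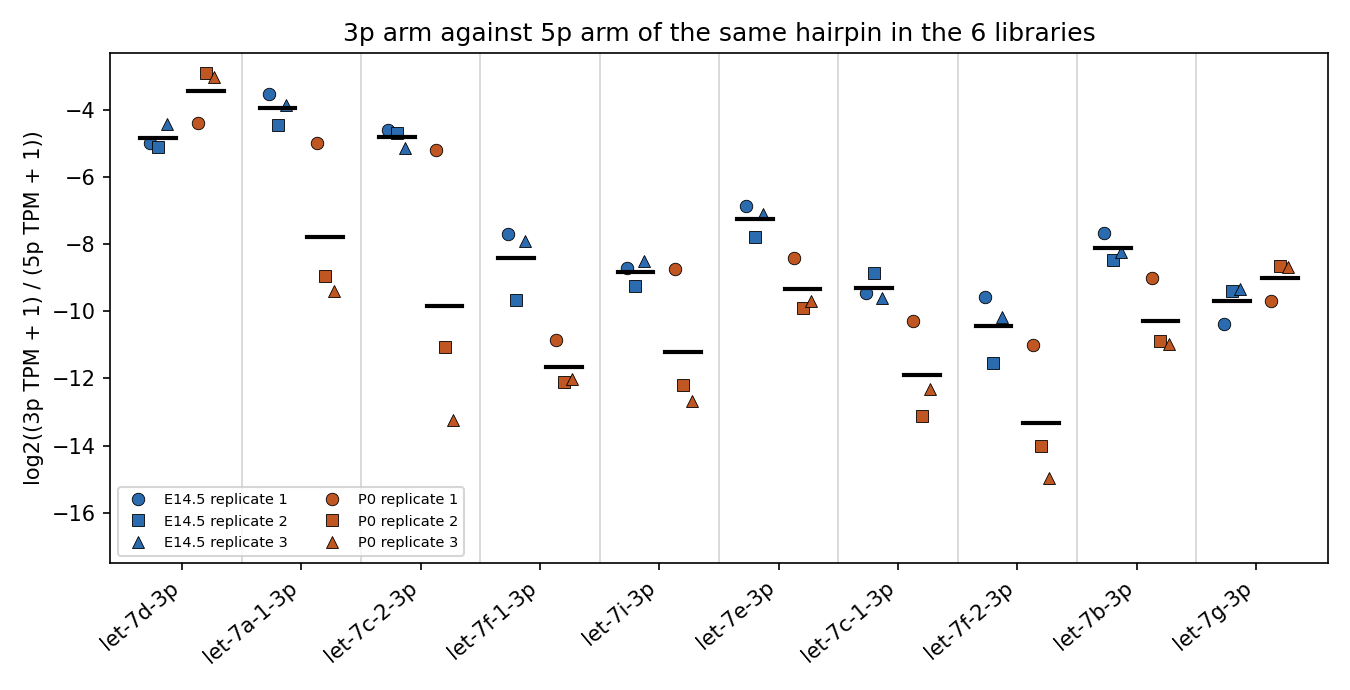
Log2 ratio of the 3p arm (TPM + 1) to the 5p arm (TPM + 1) of the same hairpin in each library, E14.5 in blue and P0 in orange, with the replicate shown by the marker and the mean of 3 libraries by a bar. The P0 libraries lie below all E14.5 libraries for 6 hairpins, above them for let-7d, and overlap them for let-7f-2, let-7g and let-7i, each hairpin taken with its own 5p row.

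Across 251 hairpins with both arms measured, limma called 0 changed in the 3p to 5p ratio at an adjusted p below 0.05 (0.0%), and hence 0 of the 10 let-7 hairpins. At an unadjusted limma p below 0.05 there were 27.9% of all hairpins, 13.1% lower and 14.7% higher at P0, and 8 of the 10 let-7 hairpins, 7 lower and 1 higher. The median log2 change of the ratio was -2.49 over the let-7 hairpins and 0.03 over all 251. It was 0.26 over the 147 hairpins that, like those of let-7, held less 3p than 5p. The P0 libraries lay below the E14.5 libraries in 6 let-7 hairpins (let-7a-1, let-7b, let-7c-1, let-7c-2, let-7e and let-7f-1) and above them in let-7d, where 13.9% and 17.1% of all hairpins did so. The separation of let-7a-1 rests on its own 5p row, and those of let-7c-2 and let-7d lie within counting error in their closest libraries, as given above for the shares.

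On own 5p rows the ratio of the hairpins with the identical 3p arm changed by -5.02 (SE 1.90, limma adjusted p = 0.168) for let-7c-2 and -3.84 (SE 1.16, limma adjusted p = 0.143) for let-7a-1. The ratio of let-7f-1 changed by -3.24 (SE 0.75, limma adjusted p = 0.117), the smallest p of the 10. With the rows of each 5p arm summed, the changes were -4.33 for let-7c-2, -3.32 for let-7f-1, -2.86 for let-7a-1, -2.83 for let-7f-2 and -2.79 for let-7c-1, so the place of let-7a-1 in the order depends on the row used. Those of let-7f-2, let-7c-1, let-7i, let-7b and let-7e, on own rows, lay between -2.90 and -2.09. The ratio was positive for let-7d, at 1.41 (SE 0.53, limma adjusted p = 0.168), and for let-7g, at 0.70 (SE 0.58, limma adjusted p = 0.409). None of these passed the adjusted threshold.

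Without P0 replicate 1, limma called the ratio lower in 8 let-7 hairpins and higher in let-7d, where 23.1% of all hairpins were called lower and 20.7% higher. The changes in this fit ran from -7.34 (SE 0.69, limma adjusted p = 0.00167) for let-7c-2 to -2.55 (SE 0.43, limma adjusted p = 0.00707) for let-7e among those called lower. For let-7d the change was 1.89 (SE 0.37, limma adjusted p = 0.0104). The ratio of let-7g, at 1.04 (SE 0.46, limma adjusted p = 0.113), did not pass. Leaving out any other library gave 0 calls among the 10. In P0 replicate 1 the median log2 ratio of the 10 hairpins was -8.87, between -8.66 in E14.5 replicate 2 and -11.0 in P0 replicate 2. The median over all 251 hairpins ranged only from -1.53 to -1.07 across the 6 libraries.

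Summed over the 10 loci, the 3p arms held 802, 551 and 828 TPM at E14.5 and 694, 343 and 251 TPM at P0. The means were 727 ± 153 and 429 ± 234 TPM (SD, n = 3), a difference that did not pass an exact two-sided permutation test (p = 0.2, where 0.1 is the smallest that 3 against 3 libraries can give). Without P0 replicate 1 the P0 mean was 297 TPM. With median-of-ratios scaling the same sum was 461 ± 78.5 at E14.5 and 629 ± 173 at P0 (exact permutation p = 0.3). The own 5p rows of the 10 hairpins held 135591 ± 7822 TPM at E14.5 and 243720 ± 32369 TPM at P0, without overlap (exact permutation p = 0.1). Left out of this sum was the let-7a-5p row of the let-7a-2 gene, which averaged 23471 TPM at E14.5 and 28282 TPM at P0. Counted with these own 5p rows only, the 3p arms were 0.621%, 0.382% and 0.612% of both arms at E14.5. At P0 they were 0.332%, 0.126% and 0.0999%, again without overlap (exact permutation p = 0.1). With the left-out row the percentages would be lower.

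The make-up of this small pool differed between libraries. At E14.5 let-7d-3p held 21.0%, 27.9% and 28.0% of the summed 3p TPM and at P0 25.3%, 77.5% and 77.7%. In its share of let-7d-3p P0 replicate 1 lay within the E14.5 range, although for 6 of the other loci it lay outside that range, and in the other P0 libraries a single locus held most of the pool. The difference of 34.5 points in the means did not pass (exact two-sided permutation p = 0.3, 0.4 after adjustment over the 10 loci) and was 52.0 points without P0 replicate 1. The share of let-7a-1-3p was 21.4 ± 1.73% (SD, n = 3) at E14.5 and 25.0%, 4.03% and 3.21% at P0. Shares of let-7f-1-3p and let-7e-3p were lower and that of let-7b-3p was higher in every P0 library than in every E14.5 library (exact permutation p = 0.1 for each, 0.333 after adjustment). In reads, the Wilson intervals of the closest libraries overlapped for let-7e-3p (4.68 to 6.64% and 4.65 to 5.20%) and let-7b-3p (1.68 to 2.94% and 2.19 to 3.04%), so only let-7f-1-3p was separated beyond counting error. For let-7f-1-3p the shares were 15.3%, 6.25% and 11.5% at E14.5 and 3.62%, 1.55% and 2.19% at P0. For let-7b-3p they were 1.68 ± 0.486% at E14.5 and 2.73 ± 0.193% at P0. Shares within 1 pool sum to the whole, so a high share of one locus lowers the others.

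**Figure D4:**
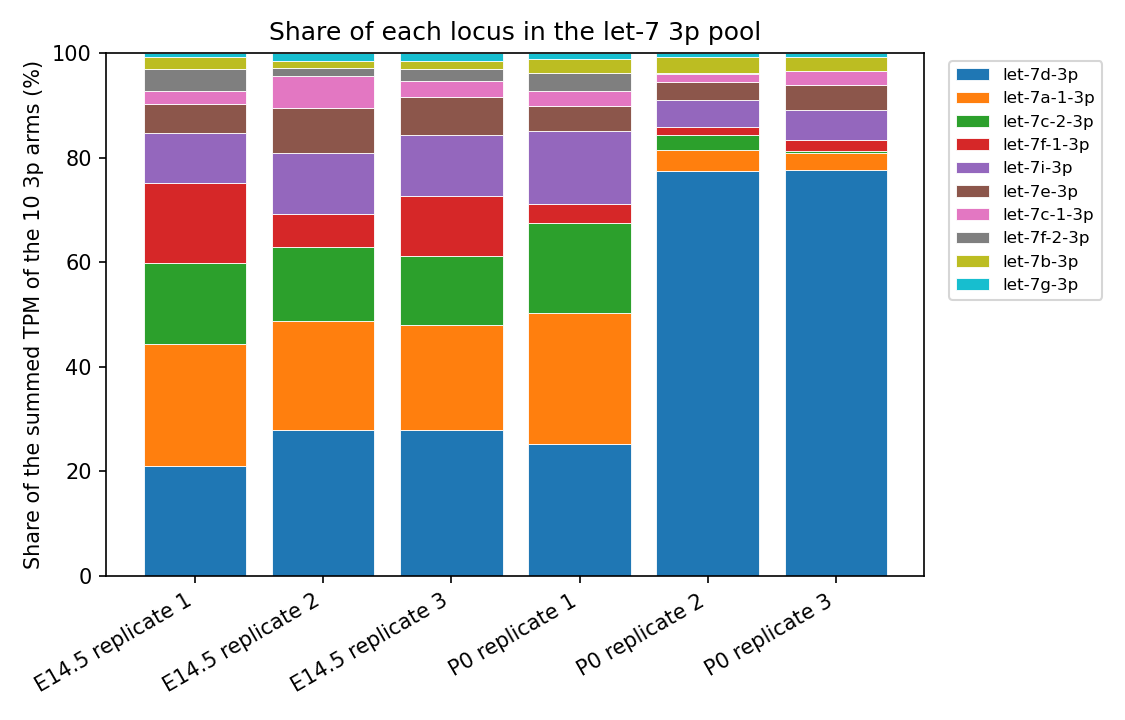
Share of each locus in the summed TPM of the 10 let-7 3p arms, in percent, for each of the 6 libraries. The share of let-7d-3p (bottom, dark blue) was 21.0 to 28.0% in the E14.5 libraries and in P0 replicate 1, and 77.5 and 77.7% in P0 replicates 2 and 3.

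Loci of the same cluster can be cut from 1 primary transcript, so the ratios of their 3p arms were set side by side. The 4 pairs were chosen after their values were seen, and none passed a test. On chromosome 13 the ratio of let-7d-3p to let-7f-1-3p was 1.37, 4.46 and 2.43 at E14.5 and 6.99, 50.1 and 35.5 at P0, without overlap. Its exact permutation p was 0.1, or 0.2 after adjustment over the 4 pairs. The ratio of let-7d-3p to let-7a-1-3p was 0.899, 1.33 and 1.40 at E14.5 and 1.01, 19.2 and 24.2 at P0 (exact permutation p = 0.3), so it overlapped through P0 replicate 1. The ratio of let-7a-1-3p to let-7f-1-3p was 1.52, 3.36 and 1.73 at E14.5 and 6.89, 2.60 and 1.47 at P0 (exact permutation p = 0.7), with full overlap. On chromosome 15 the ratio of let-7b-3p to let-7c-2-3p was 0.143, 0.0910 and 0.117 at E14.5 and 0.155, 1.07 and 7.32 at P0, without overlap (exact permutation p = 0.1, or 0.2 after adjustment). Its closest libraries had Wilson intervals of 0.105 to 0.194 at E14.5 and 0.142 to 0.168 at P0, so they were not separated beyond counting error. The last value rests on the 19 reads of let-7c-2-3p, in the library where its rows and those of the identical let-7a-1-3p were split unlike in the others. Against the sum of both rows the ratio was 0.0571, 0.0365 and 0.0464 at E14.5 and 0.0632, 0.435 and 0.724 at P0.

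Grouped by seed, the 4 arms with seed UAUACAA held a summed 452, 234 and 382 TPM at E14.5 and 337, 38.7 and 20.9 TPM at P0. The stages overlapped through P0 replicate 1. The seed of let-7d-3p, UAUACGA, belonged to no other arm of the 10. In P0 replicates 2 and 3 the level of let-7d-3p, 266 and 195 TPM, was thus above the summed level of the 4 arms with the most common seed. At E14.5 it was below that sum in each library.

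Among 14 mature miRNAs that share a cluster or host with a let-7 gene, all were tested. In TPM 2 were called lower at P0 and 1 higher by limma, against 32.8% and 1.34% of all miRNAs, with a median log2 change of -0.81. Without P0 replicate 1, 4 were called lower and 1 higher, against 53.4% and 7.76%, with miR-99a-5p at -1.92 (SE 0.38, limma adjusted p = 0.00115) and miR-125b-2-3p at -0.86 (SE 0.34, limma adjusted p = 0.0454) added to both miR-98 arms. With all libraries the 2 lower ones were both arms of miR-98, a let-7 family member next to let-7f-2 in Huwe1. Arm miR-98-3p measured 45.8, 25.9 and 31.5 TPM at E14.5 and 15.4, 0.900 and 0 TPM at P0, a log2 change of -3.45 (SE 0.88, limma adjusted p = 0.0121). Arm miR-98-5p changed by -2.19 (SE 0.54, limma adjusted p = 0.0101). Higher was miR-125a-5p, of the let-7e cluster, at 1.32 (SE 0.44, limma adjusted p = 0.0356). These calls depended on single libraries, and none was made without E14.5 replicate 3. In addition miR-98-3p was not called without E14.5 replicate 1, miR-98-5p without P0 replicate 3, or miR-125a-5p without E14.5 replicate 1, P0 replicate 2 or P0 replicate 3. Neighbours that did not pass with all libraries included miR-100-3p at -1.49, miR-125b-1-3p at -0.91, miR-100-5p at -0.83 and miR-125a-3p at -0.24, and miR-100-3p was called lower without E14.5 replicate 1. After rescaling by median of ratios, 0 were called lower and 4 higher (miR-125a-5p, miR-125b-5p, miR-99b-5p and miR-99b-3p), against 5.22% and 5.67% of all miRNAs, with a median of 0.47. Under that scaling and without P0 replicate 1, both miR-98 arms were called lower and 6 neighbours higher, against 26.0% and 22.4% of all miRNAs.

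These neighbours also differed in their own arms. In the let-7e cluster miR-99b-3p measured 171, 362 and 219 TPM at E14.5 and 341, 270 and 302 TPM at P0, and its stages overlapped where those of let-7e-3p did not. In the let-7c-1 cluster miR-99a-3p measured 11.9, 21.5 and 9.46 TPM at E14.5 and 13.6, 17.2 and 8.11 TPM at P0, while let-7c-1-3p was at 5.09 and 7.08 TPM in P0 replicates 2 and 3, below its E14.5 range. On chromosome 9, let-7a-2-3p, the passenger strand of the other let-7a gene, measured 0.795, 1.16 and 3.70 TPM at E14.5 and 1.12, 0 and 0 TPM at P0. These were 2, 26 and 18 reads at E14.5 and 37, 0 and 0 reads at P0, so P0 replicate 1 held reads where the other P0 libraries held 0. Its log2 change was -1.03 (SE 0.57, limma adjusted p = 0.159), which did not pass.

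The miRNAs whose profile over the 6 libraries was nearest to that of the summed 3p arms were miR-196a-2-3p, miR-181d-3p and miR-142a-5p. Their root mean square differences from it were 0.17, 0.25 and 0.25 on the centred log2(TPM + 1) scale, against a median of 0.88 over the 423 miRNAs that averaged 10 TPM or more. For miR-196a-2-3p the levels were 81.0, 55.9 and 81.1 TPM at E14.5 and 61.1, 35.9 and 32.4 TPM at P0. The arm miR-142a-5p is on the leukocyte marker list and measured 78.7, 73.2 and 92.7 TPM at E14.5 and 97.9, 28.7 and 30.8 TPM at P0. Of the 10 arms themselves, let-7g-3p was nearest to their sum, at 0.33, and let-7c-2-3p farthest, at 1.67.

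In the authors' deposited table of their own comparison of the stages, 1 of the 10 arms had an adjusted p below 0.05, against 10.4% of all 1034 miRNAs. In the authors' deposited table this was let-7d-3p, with a log2 fold change of 1.60 (SE 0.58) and an adjusted p of 0.0422, higher at P0. The authors' deposited table lists let-7f-1-3p at a log2 fold change of -1.42 and an adjusted p of 0.192, and let-7c-2-3p at -1.79 and 0.214.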

How the data were processed

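Small RNA libraries of nephron progenitors, 3 litter pools at each of 2 stages, were compared. The deposited TPM values and the mean signal in the authors' table are on mm10, and featureCounts and DESeq2 1.26.0 are named in the submitters' processing notes. Per the file headers the authors' deposited table also holds log2 fold changes, a test score and p-values. The aligner, the handling of molecular tags and of reads with several positions, and the use of strand are not given in the sources used here. Here, whole reads were recovered from the deposited TPM, row length and library step (100.0% of values within 1e-06 reads of a whole number). Of rows with the same name the one with the most reads was tested, and for the arm ratio each gene kept its own row. Log2(TPM + 1) was tested in R 4.3.3 with limma 3.58.1 (trend option on) for the 670 miRNAs that averaged 1 TPM or more, and p-values were adjusted by Benjamini-Hochberg over all of them. The ratio of arms was tested likewise on 251 of 394 hairpins. Single values used the exact two-sided permutation test, and shares 95% Wilson intervals. P-values measure the spread between litter pools. The fit was tested on simulated data with equal numbers of rises and falls and no deviating library. That test therefore does not cover the general fall in TPM or a library like P0 replicate 1. The 10 arms, the lists and the tests were chosen with earlier results of these data known. The rule for named miRNAs was the 10 arms, their 5p arms, 14 neighbours and the 3 miRNAs nearest in profile, and marker miRNAs named beside their lists were chosen after their values were seen. Alternatives were other scalings, filters, pseudocounts, limma-voom on the recovered reads, a replicate block, summed rows and each library left out. Merging of identical sequences, and median-of-ratios scaling without P0 replicate 1, were chosen after seeing the data.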

Additional observations from a re-analysis of the deposited data

How the results depend on the processing

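The count of 3p arms called by limma was 1 of 10 with all libraries in TPM, where 32.8% of all miRNAs were called lower and 1.34% higher. It was 0 with median-of-ratios scaling, where these shares were 5.22% and 5.67%, and 0 with upper-quartile scaling or limma-voom on recovered reads. Without a filter on low values it was 3, where 20.6% of all 1034 miRNAs were called lower and 0.58% higher. It was 0 to 8 when 1 library was left out. The 8 came without P0 replicate 1, where 53.4% of all miRNAs were called lower and 7.76% higher. With median-of-ratios scaling as well, chosen after seeing the data, 5 were called, where 26.0% of all miRNAs were called lower and 22.4% higher. The count of 5p arms was 2 of 8 with all libraries in TPM. It was 6 with median-of-ratios or upper-quartile scaling, 5 with limma-voom, and 1 without a filter or with a pseudocount of 0.1. When 1 library was left out it was 1 to 5, and without P0 replicate 1 under median-of-ratios scaling 7. Shares of all miRNAs called under upper-quartile scaling, limma-voom, the pseudocount of 0.1 or another left-out library are not given here. Counts under those settings therefore cannot be set against all miRNAs. The count for the arm ratio, 0 of 10, was 0 to 9 when 1 library was left out, and 0 otherwise. The 9 came without P0 replicate 1, where 23.1% of all hairpins were called lower and 20.7% higher. The sign of let-7b-3p turned to 1.06 with median-of-ratios scaling, 1.24 with upper-quartile scaling, 1.43 with limma-voom, 0.91 without P0 replicate 1 under median-of-ratios scaling, and it ran from -0.48 to 0.21 when 1 library was left out (0.16 without E14.5 replicate 1, 0.21 without P0 replicate 3). That of let-7g-3p turned to 0.052, 0.21 and 0.11, and that of let-7d-5p to 0.085, 0.28 and 0.083, with median-of-ratios, upper-quartile and limma-voom, and that of let-7i-3p to 0.059 with upper-quartile scaling. The cause of these changes was not tested. The share of let-7d-3p kept its direction under all 8 alternatives run. That says little about the stages, because a share within a library does not depend on its scaling or on merging other rows. Its stages overlapped (exact permutation p = 0.3). The replicate numbers did not show a clear pairing. Same-numbered libraries correlated in their deviations at 0.193, 0.183 and 0.0423, and differently numbered ones at -0.182 to 0.0770. P0 replicates 1 and 2 correlated best with the E14.5 library of their own number, but P0 replicate 3 did so with E14.5 replicate 2. With a replicate block 4 of the 3p arms, 3 of the 5p arms and 0 ratios were called. In those fits 35.1% of all miRNAs were called lower and 1.79% higher, and 0.0% of all hairpins were called. With the block and median-of-ratios scaling, for which the share of all miRNAs is not given here, 0 and 6 arms were called. The signs were the same as without the block (let-7b-3p 1.06, let-7g-3p 0.052, let-7d-5p 0.085). Depth limits let-7f-2-3p and let-7c-2-3p, which held 0 and 19 reads in P0 replicate 3, and E14.5 replicate 1, with the fewest reads.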
